A study of Mus musculus with 13 samples.

Results

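The genes described here are the glutathione and antioxidant genes of mouse mammary organoids. They are the genes whose name on the array belongs to a glutathione transferase of a named class (alpha, kappa, mu, omega, pi, theta or zeta), a microsomal glutathione transferase, a glutathione peroxidase, a peroxiredoxin or the thioredoxin family, or is Nqo1, Hmox1, Gclc, Gclm, Gsr, Gss, Srxn1, Cat, Sod1, Sod2, Sod3, Nfe2l2 or Keap1. The array holds 72 such genes on 120 probes, out of 27962 gene names on 41174 probes. Of the 72, 66 were bright enough to be tested, out of 17788 genes tested in all. Gstm6 was well above background on some arrays only, and Gpx5, Gpx6, Txndc3, Txndc8 and Txnl6 were so on no array.

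Tumor organoids came from mammary carcinomas of MMTV-PyMT mice, in which a viral middle T oncogene is driven by the promoter of the mouse mammary tumor virus. Tumors were taken at 12 to 16 weeks of age, the largest 1 of each mouse. Normal organoids came from the mammary glands of FVB mice; the sources used here give no age for them. An organoid here is a multicellular fragment of epithelium, freed with collagenase and trypsin. The gel around them was either collagen I of rat tails (3 mg/ml), which forms fibrils, or Matrigel, a mixture of basement membrane proteins, and all were kept in medium with 2.5 nM FGF2 until day 4. The 4 groups compared are tumor organoids in collagen I (mice A, B and C), tumor organoids in Matrigel (A, B and C), normal organoids in collagen I (A, B and C) and normal organoids in Matrigel (A, B and D), with 1 array per mouse and gel. Within a tissue, a letter stands for 1 mouse, and no mouse gave both tissues. Tumor mice A, B and C and normal mice A and B are present in both gels. Normal mouse C is present in collagen I only and normal mouse D in Matrigel only.

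Glutathione is a small thiol peptide that cells make from glutamate, cysteine and glycine. Glutathione peroxidases use it to reduce peroxides, glutathione transferases attach it to reactive compounds, and glutathione reductase restores it with NADPH, while peroxiredoxins and thioredoxins form a parallel system. Many of these enzymes are induced by the transcription factor NRF2 (Nfe2l2), which KEAP1 marks for degradation until electrophiles or oxidants modify KEAP1.

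Levels are the log2 of the array's processed signal minus the log2 of that array's 75th percentile, so 0 is the 75th percentile and a difference of 1 is a 2-fold change in signal. Changes are differences of these values with their standard error from limma after ±, over 3 arrays per group, and a gene is called higher or lower at a Benjamini-Hochberg adjusted p below 0.05 over the 17788 genes. Values of single arrays follow the order of mice A, B and C, or A, B and D for normal Matrigel.

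All 6 luminal and all 6 basal epithelial markers were well above background on all 12 arrays, but their levels differed between the groups. Of the 6 basal markers 2 fell and 1 rose in tumor against normal organoids in each gel. The smooth muscle genes Myh11 and Cnn1, which mark differentiated basal (myoepithelial) cells, fell, with changes of -7.05 ± 0.46 and -5.48 ± 0.29 in Matrigel and -5.79 ± 0.46 and -4.84 ± 0.29 in collagen I, and the basal factor Trp63 rose by 0.95 ± 0.32 in Matrigel and 1.20 ± 0.32 in collagen I. Acta2, Krt14 and Krt5 were called in neither gel. Acta2, also a smooth muscle gene, had mean levels of 4.27 in tumor and 4.31 in normal Matrigel, and 4.12 and 4.37 in collagen I. For Krt14 they were 7.25 and 6.16 in Matrigel and 7.89 and 6.31 in collagen I, and for Krt5 6.30 and 7.02, and 6.77 and 6.89. Of the luminal markers 4 of 6 rose in tumor against normal Matrigel, 0 of 6 in collagen I, and 3 of 6 fell in tumor collagen I against tumor Matrigel. Of all genes 26.3% were called higher and 25.5% lower in the first of these comparisons, 3.76% higher and 5.13% lower in the second, and 15.3% higher and 12.3% lower in the last. Of the 8 leukocyte and macrophage markers 1 rose and 1 fell in tumor against normal Matrigel, with a median change of -0.63. In tumor collagen I against tumor Matrigel 0 rose and 1 fell, with a median of 0.03. The marker that rose in the former and fell in the latter was Cd68, with changes of 4.16 ± 0.43 and -2.92 ± 0.43. The part of these differences in the changes of the members was not tested. The tumor Matrigel arrays were dimmer than the others. Their 75th percentile signal was 384 to 570 and 56.6% to 58.6% of their spots were well above background, against 672 to 1218 and 62.1% to 71.4% on the other 9 arrays. On the scale used, the change of a gene between tumor and normal organoids in Matrigel moved with its brightness. The median change over all genes was -0.43 in the dimmest and 0.54 in the brightest of 5 equal bins by mean level. Of the 66 members 32 lay in the brightest bin, where 48.5% of all genes were called higher and 8.4% lower. For that reason the calls are given together with those of 3 other scalings: quantile normalization, normexp background correction and the authors' deposited log2 values. In the authors' values normal Matrigel mouse B is the mean of its array and a repeat array that the other scalings leave out. With quantile normalization the medians of the bins were at most 0.08 in this comparison. With normexp the median of all genes itself moved: it was 0.44 between the tissues in Matrigel, where the scaling above gives 0.10, and -0.32 between the gels in tumor organoids, where it gives -0.06, and changes on that scale are relative to those shifts. Of the luminal calls above, 1 of the 4 rises and 1 of the 3 falls were made under all 3 other scalings. The rise of Trp63 was called under all 3 in neither gel.

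**Figure D1:**
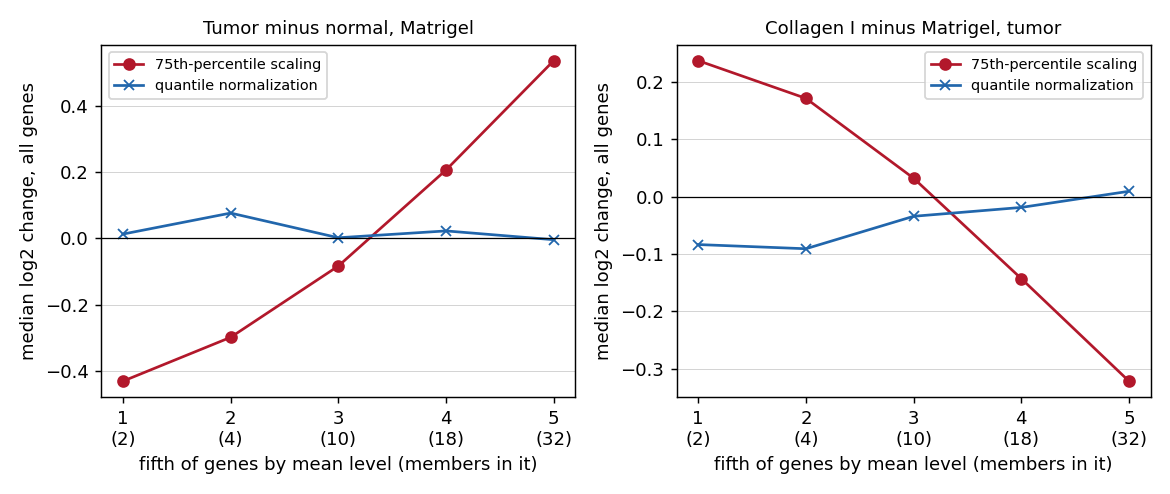
Median log2 change of all genes tested, in 5 equal bins of mean level (1 dimmest, 5 brightest), with the 75th-percentile scaling and with quantile normalization. The median runs from -0.43 to 0.54 between tumor and normal organoids in Matrigel and from 0.24 to -0.32 between the gels in tumor organoids under the first scaling, and lies between -0.09 and 0.08 under the second.

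Between tumor and normal organoids in Matrigel, 37 of the 66 members were called, 30 higher and 7 lower. Over all genes tested 26.3% were called higher and 25.5% lower in this comparison. The median change of the members was 0.51 and that of all genes 0.10. Of the 32 members in the brightest bin 18 were called higher and 0 lower, in a bin where 48.5% of all genes were called higher and 8.4% lower. Under quantile normalization the split was 15 higher and 10 lower with a median of 0.02, where 23.7% of all genes were called higher and 25.2% lower. Under the authors' values it was 14 higher and 13 lower, where 22.9% of all genes were higher and 25.2% lower. Under normexp it was 19 higher and 7 lower, where 38.7% of all genes were higher and 11.6% lower. Of the 37 calls 20 were made in the same direction under all 3 other scalings, 13 higher and 7 lower, and 23 were kept whichever array was left out. The 20 were Gpx3, Gpx7, Gstm2, Txndc10, Txndc1, Cat and Gsr lower, and Mgst2, Hmox1, Txndc2, Gstk1, Gstt1, Gstt2, Gstp1, Gsta4, Gpx4, Txnrd2, Gsto2, Txnrd3 and Srxn1 higher. Another 13, all higher, were called higher under none of the 3: Gsto1, Txn2, Txndc4, Txndc5, Gss, Gstm5, Gpx1, Txnl2, Txnl5, Keap1, Txnl1, Txnl4 and Txndc12. Of these, Gpx1 was called lower under the authors' values. With slides as a fixed block 25 of the 37 calls were kept in Matrigel and 1 of 5 in collagen I, that of Gpx3. In collagen I 5 members were called between the tissues, 2 higher and 3 lower, where 3.76% of all genes were called higher and 5.13% lower. In each gel 1 pair of arrays of different tissue shared a slide. Between these, all 37 members called in Matrigel and all 5 called in collagen I differed in the called direction. The same arrays had entered the calls, so this is no separate test of them.

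The largest differences lay in 2 glutathione peroxidases. Gpx3, the secreted peroxidase of plasma, stood at -2.16, -2.27 and -2.12 in tumor collagen I and -2.41, -1.51 and -3.14 in tumor Matrigel, against 2.0, 1.49 and 2.30 in normal collagen I and 1.19, 2.38 and 1.97 in normal Matrigel. Every tumor array was below every normal array in both gels. The change was -4.20 ± 0.41 in Matrigel (adjusted p = 5.43e-05) and -4.11 ± 0.41 in collagen I (adjusted p = 0.000128). Gpx7, a peroxidase of the endoplasmic reticulum, stood at -3.99, -4.54 and -5.40 in tumor collagen I and -4.93, -4.85 and -6.88 in tumor Matrigel, against -1.09, -0.98 and -0.94 in normal collagen I and -0.15, -1.0 and -0.35 in normal Matrigel. Here too the tissues did not overlap in either gel, with changes of -5.06 ± 0.52 in Matrigel (adjusted p = 7.23e-05) and -3.64 ± 0.52 in collagen I (adjusted p = 0.00139). Both genes were called in both gels under all 3 other scalings. The Gpx7 probe was well above background on 2 of the 3 tumor Matrigel arrays, not in mouse C, so its size there is uncertain. With normexp Gpx7 changed at -1.71 and Gpx3 at -3.12 in Matrigel, which reverses their order.

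Fibroblast, endothelial and adipocyte markers also fell in tumor organoids, besides the basal markers Myh11 and Cnn1. All 6 fibroblast markers fell in tumor against normal organoids in Matrigel and 4 of 6 in collagen I. Their summed signal, in units of each array's 75th percentile, reached 3.39 to 5.98 in collagen I and 2.25 to 2.77 in Matrigel for tumor organoids, against 16.0 to 40.8 in collagen I and 9.56 to 67.3 in Matrigel for normal ones. Of 5 endothelial markers 4 fell in each gel, and the summed signal reached 0.0929 to 0.164 in collagen I and 0.234 to 0.511 in Matrigel for tumor organoids, against 3.16 to 6.05 in collagen I and 6.03 to 7.81 in Matrigel for normal ones. Both adipocyte markers tested fell in Matrigel and 1 of 2 in collagen I. Tek, an endothelial receptor, was the marker not called in either gel, with mean levels of -5.52 in tumor and -5.42 in normal Matrigel. It was well above background on 1 tumor collagen I array and on no tumor Matrigel array, and on every normal array. Because the tumor Matrigel arrays were dimmer, these counts do not show a lower level there. Lep was so on no array at all, and Adipoq on 2 normal Matrigel arrays only. In these bulk samples fewer cells of a type and less RNA per cell cannot be told apart, and the part of such cells in the levels of Gpx3 and Gpx7 was not tested.

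The other peroxidases did not follow that pattern. Gpx1, the abundant cytosolic enzyme, stood at 6.85, 6.61 and 6.75 in tumor collagen I and 7.03, 7.87 and 7.29 in tumor Matrigel, against 7.00, 6.63 and 6.71 in normal collagen I and 6.86, 6.61 and 6.72 in normal Matrigel. Its change in Matrigel was 0.67 ± 0.22 (adjusted p = 0.0251), and it reversed to -0.34 under quantile normalization and -0.50 under the authors' values. Under the authors' values limma called it lower (adjusted p = 0.0443). Gpx4, which reduces lipid peroxides in membranes, stood at 6.06, 6.11 and 5.75 in tumor collagen I and 6.43, 6.84 and 6.55 in tumor Matrigel, against 6.07, 5.83 and 5.72 in normal collagen I and 5.73, 5.26 and 5.25 in normal Matrigel. Every tumor Matrigel array was above every other array, and Gpx4 rose by 1.19 ± 0.20 in tumor against normal Matrigel (adjusted p = 0.000894), but by 0.42 under quantile normalization and 0.37 under the authors' values. Gpx2, the form known from the gut epithelium, was called in no comparison.

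Among the glutathione transferases outside the alpha, mu and microsomal groups, 6 of 8 rose in tumor against normal Matrigel, where 26.3% of all genes did, and 48.5% of those in the brightest bin. They were Gstk1, Gstt1, Gstt2, Gsto1, Gstp1 and Gsto2. Gstt1, a theta-class enzyme, stood at -0.45, -0.17 and -0.90 in tumor collagen I and -0.78, 0.01 and -0.50 in tumor Matrigel, against -1.24, -1.39 and -1.44 in normal collagen I and -1.38, -2.22 and -3.05 in normal Matrigel. All 6 tumor arrays were above all 6 normal arrays, and the change in Matrigel was 1.79 ± 0.37 (adjusted p = 0.00288). Gstt2, also of the theta class, stood at 1.98, 1.76 and 1.27 in tumor collagen I and 1.55, 2.04 and 1.13 in tumor Matrigel, against 1.26, 1.15 and 0.69 in normal collagen I and 0.80, -0.29 and -0.24 in normal Matrigel, and changed by 1.48 ± 0.34 in Matrigel. Gstk1, the kappa-class enzyme of mitochondria and peroxisomes, stood at 2.79, 3.37 and 2.96 in tumor collagen I and 2.92, 3.63 and 2.97 in tumor Matrigel, against 2.07, 1.82 and 1.68 in normal collagen I and 2.43, 1.17 and 0.06 in normal Matrigel. Its change in Matrigel was 1.95 ± 0.48 (adjusted p = 0.00624). In collagen I these 3 genes did not pass, with changes of 0.85 ± 0.37 for Gstt1, 0.64 ± 0.34 for Gstt2 and 1.18 ± 0.48 for Gstk1. Gstt1, Gstt2 and Gstk1 were called in Matrigel under all 3 other scalings.

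Mgst2, a microsomal transferase that can make leukotriene C4, rose in tumor against normal Matrigel. Its levels were 2.44, 2.89 and 3.08 in tumor collagen I and 2.62, 3.11 and 3.47 in tumor Matrigel, against 2.10, 1.82 and 1.56 in normal collagen I and 1.77, 0.32 and -0.64 in normal Matrigel. The tissues did not overlap in either gel, with changes of 2.58 ± 0.49 in Matrigel (adjusted p = 0.00179) and 0.98 ± 0.49 in collagen I (adjusted p = 0.263). Normal Matrigel mouse A stood above mice B and D for Mgst2, Gstk1, Gstt1 and Gstt2. The remaining microsomal enzymes, Mgst1 and Mgst3, were called in no comparison.

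Gstp1, the pi-class transferase, stood at 5.71, 5.79 and 6.08 in tumor collagen I and 6.65, 7.14 and 6.73 in tumor Matrigel, against 5.66, 5.39 and 5.38 in normal collagen I and 5.72, 5.25 and 5.39 in normal Matrigel. The 3 tumor Matrigel arrays were above all others, and the change between the tissues in Matrigel was 1.39 ± 0.20 (adjusted p = 0.000413), against 0.55 under quantile normalization and 0.55 under the authors' values. Gstp1 has a close copy in the mouse genome, Gstp2, whose transcripts the probe may also bind. The omega-class genes Gsto1 and Gsto2 rose by 1.43 ± 0.47 and 0.99 ± 0.21 in Matrigel, and Gsto2 was called under all 3 other scalings and Gsto1 under none. Gstm5, of the mu class, was called at 0.67 ± 0.23, but at 0.14 to 0.41 under the other scalings it did not pass.

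Gsta4, an alpha-class transferase that conjugates the lipid peroxidation product 4-hydroxynonenal, was higher in tumor organoids in both gels. It stood at 0.85, 1.32 and 1.80 in tumor collagen I and 0.88, 0.89 and 0.76 in tumor Matrigel, against -0.07, -0.05 and -0.46 in normal collagen I and -0.16, -0.54 and -0.56 in normal Matrigel. All 6 tumor arrays lay above all 6 normal arrays, by 1.51 ± 0.24 in collagen I (adjusted p = 0.00267) and 1.26 ± 0.24 in Matrigel (adjusted p = 0.00173), with values of 1.1 to 1.21 in Matrigel under the other scalings. The mu-class Gstm2 went the other way, at -0.82, -0.94 and -1.07 in tumor collagen I and -0.35, 0.56 and -0.32 in tumor Matrigel, against 0.61, 0.68 and 1.05 in normal collagen I and 1.57, 0.76 and 0.67 in normal Matrigel. In collagen I the tissues did not overlap and Gstm2 fell, at -1.72 ± 0.30 in tumor against normal organoids, with an adjusted p of 0.00449. It also fell in Matrigel, where the change was -1.04 ± 0.30 and the call was lost without tumor mouse A. Both calls were made under the 3 other scalings, but with slides as a fixed block Gstm2 changed at -0.27 in Matrigel (adjusted p = 0.554) and -1.37 in collagen I (adjusted p = 0.145). Gsta4 and Gstm2 were, with Gpx3 and Gpx7, the 4 members called between tumor and normal organoids in both gels under every scaling. Txnl5 (now Txndc17), a thioredoxin-like protein of the cytosol, was called in both gels at 0.63 ± 0.19 in Matrigel and 0.75 ± 0.19 in collagen I, but it turned to -0.066 and -0.081 in Matrigel under quantile normalization and the authors' values.

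**Figure D2:**
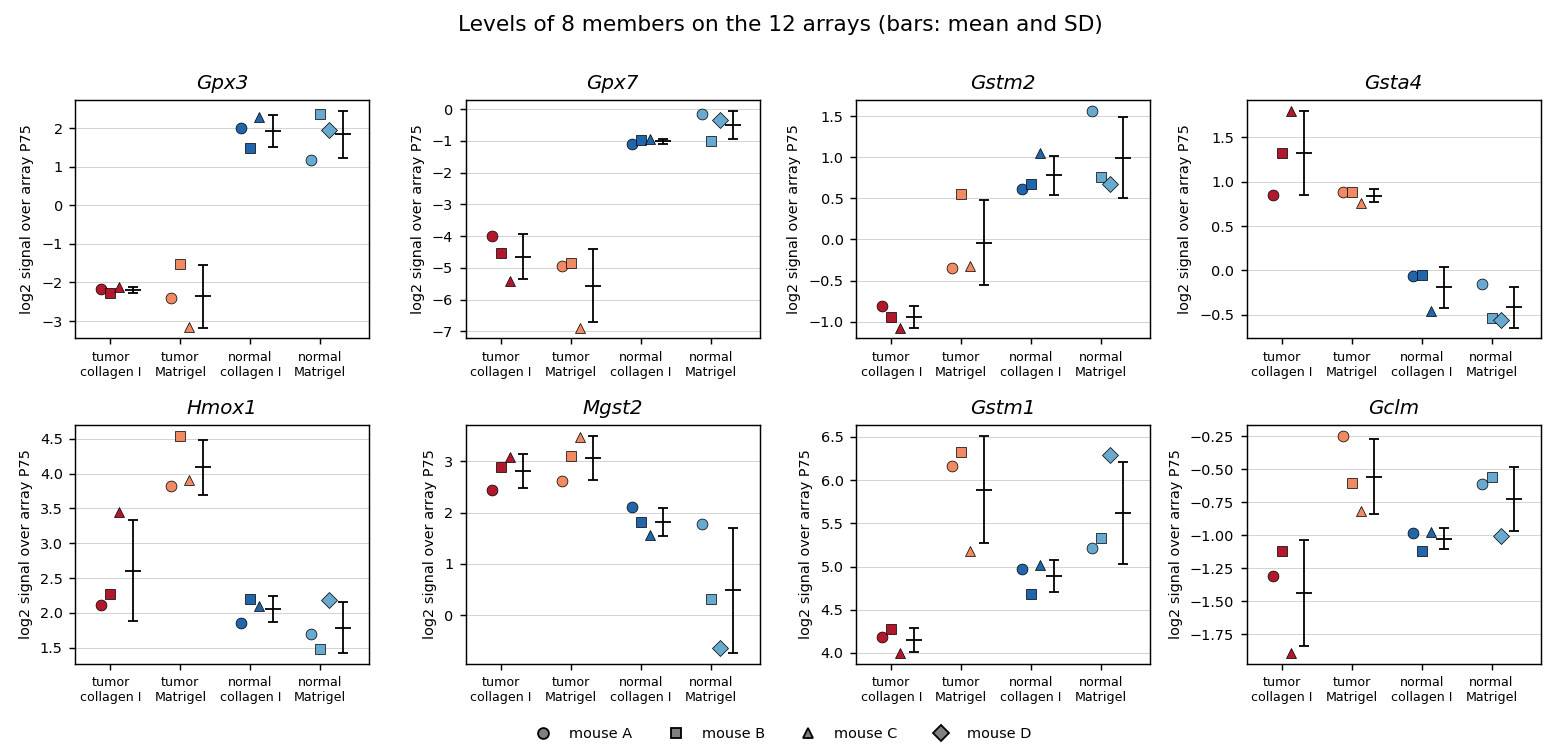
Level of 8 members on each of the 12 arrays, as log2 signal over the array's 75th percentile, with the mean and SD of each group of 3 beside the points and a symbol for each mouse. Gpx3, Gpx7 and Gsta4 separate the 6 tumor arrays from the 6 normal arrays, whereas Hmox1 is highest on the 3 tumor Matrigel arrays.

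Superoxide dismutases turn superoxide into peroxide, and catalase removes it. Sod2, the mitochondrial dismutase, stood at 6.65, 6.57 and 6.74 in tumor collagen I and 6.84, 6.63 and 7.10 in tumor Matrigel, against 6.34, 6.10 and 5.93 in normal collagen I and 5.53, 5.39 and 5.53 in normal Matrigel. The tumor arrays were above the normal arrays of the same gel. The change was 1.37 ± 0.17 in Matrigel (adjusted p = 0.000219) and 0.53 ± 0.17 in collagen I (adjusted p = 0.0882), and in Matrigel it was 0.53 under quantile normalization and 0.48 under the authors' values. Cat was lowest in tumor Matrigel, with levels of 2.14, 2.34 and 1.65 in tumor collagen I and 1.62, 1.58 and 1.27 in tumor Matrigel, against 1.83, 1.78 and 1.93 in normal collagen I and 2.18, 2.29 and 2.34 in normal Matrigel. It fell, at -0.78 ± 0.19 against normal Matrigel (adjusted p = 0.00711) and was called under all 3 other scalings. Sod1 and Sod3 were called in no comparison.

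The peroxiredoxins are abundant thiol peroxidases. Prdx5 and Prdx6 rose in tumor against normal Matrigel, by 0.84 ± 0.25 and 1.05 ± 0.17, and so did Srxn1, the sulfiredoxin that repairs overoxidised peroxiredoxins, by 0.90 ± 0.19. Prdx6 stood at 4.31, 4.55 and 4.70 in tumor collagen I and 5.49, 5.42 and 5.25 in tumor Matrigel, against 4.45, 4.23 and 4.11 in normal collagen I and 4.32, 4.23 and 4.45 in normal Matrigel. The 3 tumor Matrigel arrays were the highest, although the change dropped to 0.43 under quantile normalization and 0.42 under the authors' values. Prdx1, Prdx2, Prdx3 and Prdx4 were called in no comparison.

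In the thioredoxin system 3 of 6 genes were called higher in tumor against normal Matrigel, where 26.3% of all genes were, and 48.5% of those in the brightest bin. Txnrd2, the mitochondrial thioredoxin reductase, stood at 0.66, 1.06 and 0.63 in tumor collagen I and 1.53, 2.29 and 1.38 in tumor Matrigel, against 0.67, 0.36 and 0.53 in normal collagen I and 0.54, 0.51 and 0.79 in normal Matrigel. Txn2, the mitochondrial thioredoxin, stood at 3.39, 3.67 and 3.15 in tumor collagen I and 4.23, 4.43 and 4.21 in tumor Matrigel, against 3.47, 3.18 and 3.20 in normal collagen I and 3.74, 3.30 and 3.30 in normal Matrigel. For both genes the 3 tumor Matrigel arrays were above the other 9. Against normal Matrigel, Txnrd2 rose by 1.12 ± 0.24 and Txn2 by 0.84 ± 0.19, and Txnrd3, a further reductase, by 0.96 ± 0.24. Both reductases were called under all 3 other scalings, whereas Txn2, at 0.23 to 0.52, was called under none. Txn1, Txnrd1 and Txnip, the cytosolic thioredoxin, its reductase and a protein that binds thioredoxin, were called in no comparison.

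Of the 15 thioredoxin-domain proteins 11 were called between the tissues in Matrigel, 9 higher and 2 lower, where 26.3% of all genes were called higher and 25.5% lower. In the brightest bin these shares were 48.5% and 8.4%. Of the 9 only Txndc2 was called under all 3 other scalings. The 2 that fell are transmembrane proteins of the endoplasmic reticulum, Txndc10 (now Tmx3) and Txndc1 (now Tmx1). Txndc10 stood at 0.87, 0.58 and 0.63 in tumor collagen I and 0.17, -0.79 and -0.22 in tumor Matrigel, against 1.07, 0.75 and 0.72 in normal collagen I and 0.90, 1.07 and 1.38 in normal Matrigel. Txndc1 stood at 0.80, 0.44 and 0.21 in tumor collagen I and 0.16, -0.51 and -0.07 in tumor Matrigel, against 0.86, 0.80 and 0.80 in normal collagen I and 1.01, 1.15 and 1.26 in normal Matrigel. Both were lowest on the 3 tumor Matrigel arrays, with no overlap with any other group, and fell, at -1.40 ± 0.24 and -1.28 ± 0.21 against normal Matrigel. Both were called under all 3 other scalings. Among those that rose, Txndc4 (now Erp44), Txndc5 and Txndc11, which also belong to the endoplasmic reticulum, changed by 0.80 ± 0.18, 0.76 ± 0.23 and 0.71 ± 0.16. Under the authors' values the 3 changes were 0.39, 0.52 and 0.28, and only Txndc11 was called under any other scaling, which was 1 of the 3. Txndc2, known from sperm, was called at 2.12 ± 0.72, with levels of -5.18, -4.28 and -5.02 in tumor collagen I and -4.78, -1.40 and -4.48 in tumor Matrigel, against -4.74, -5.44 and -4.80 in normal collagen I and -5.79, -5.24 and -5.99 in normal Matrigel. Only tumor Matrigel mouse B stood clear of the rest, and all other arrays were far below the 75th percentile. Without that array the change was 1.05. Without normal Matrigel mouse A or D the call was lost, with adjusted p up to 0.0849. The thioredoxin-like Txnl2 (now Glrx3), Txnl1 and Txnl4 (now Txnl4a) and Txndc12 were called at 0.65 ± 0.23, 0.59 ± 0.18, 0.57 ± 0.14 and 0.45 ± 0.17. Under quantile normalization they stood at 0.0052, 0.038, -0.039 and 0.13, with no call under any other scaling, and Txnl1 was at -0.61 with the mean of its probes.

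**Figure D3:**
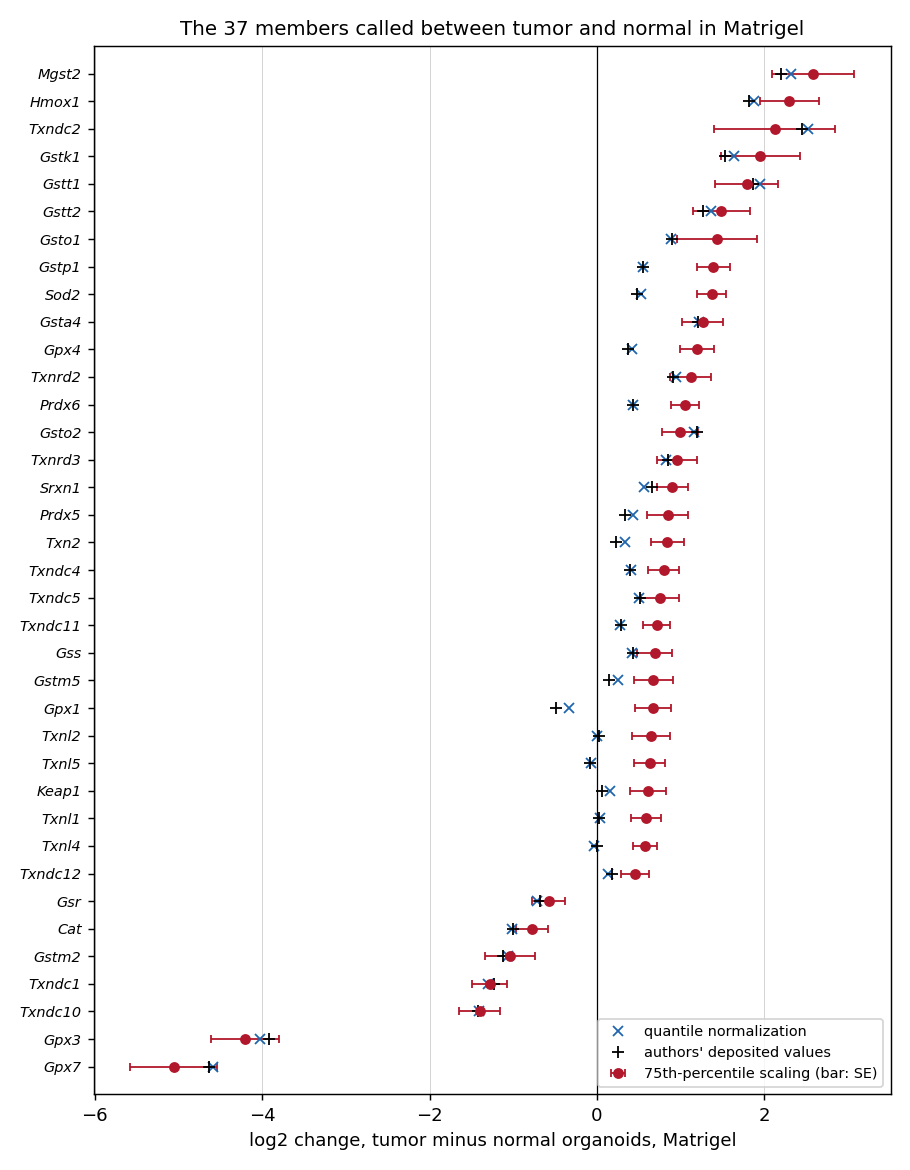
Log2 change of the 37 members called between tumor and normal organoids in Matrigel, with the SE, and the same change under quantile normalization and in the authors' deposited values. Gpx7 and Gpx3 lie at -5.06 and -4.20 and Mgst2 at 2.58 under the 75th-percentile scaling, and Gpx1 crosses 0 under both alternatives.

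Between collagen I and Matrigel in tumor organoids, 17 of 66 members were called, 2 higher and 15 lower in collagen I. Over all genes 15.3% were called higher and 12.3% lower. The median change was -0.38 for the members and -0.06 for all genes. With the mouse as a block, since both gels were taken from the same animals, 11 members were called, 1 higher and 10 lower. There 13.3% of all genes were called higher and 9.19% lower. Of the 32 members in the brightest bin 11 were called lower and 0 higher, in a bin where 24.8% of all genes were called lower and 4.72% higher. Under quantile normalization the split was 5 higher and 9 lower, where 13% of all genes were called higher and 9.51% lower. Under the authors' values it was 5 higher and 7 lower, where 12.8% of all genes were higher and 8.13% lower. Only 4 of the 17 calls were made under all 3 other scalings: Gstm1, Gsto2 and Gclm lower, and Txndc10 higher. Of the 17, 5 were kept whichever array was left out, and the calls of Gclm, Gsto2, Txndc10 and Nfe2l2 were not among these. On the slide that held both gels of the tumor group, with collagen I of mouse A and Matrigel of mouse C, all 17 differed in the called direction. Those arrays had entered the calls, so this is no separate test of them. With slides as a fixed block 2 members were called, where 14% of all genes were.

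The mu-class transferases Gstm1 and Gstm3 showed the largest falls. Gstm1 stood at 4.18, 4.28 and 4.00 in tumor collagen I and 6.16, 6.33 and 5.18 in tumor Matrigel, against 4.97, 4.68 and 5.02 in normal collagen I and 5.22, 5.34 and 6.29 in normal Matrigel. The tumor collagen I arrays were below all others, and the change between the gels in tumor organoids was -1.74 ± 0.34 (adjusted p = 0.00572), or -1.25 to -1.42 under the other scalings. Gstm3 stood at 1.97, 2.20 and 1.83 in tumor collagen I and 4.19, 4.18 and 2.86 in tumor Matrigel, against 2.9, 2.59 and 2.92 in normal collagen I and 3.08, 3.46 and 4.69 in normal Matrigel, with a change of -1.74 ± 0.43 (adjusted p = 0.0149). For both genes tumor Matrigel mouse C was lower than mice A and B, and normal Matrigel mouse D was the highest of its group. In normal organoids the changes were -0.73 ± 0.34 for Gstm1 and -0.94 ± 0.43 for Gstm3, which did not pass (adjusted p = 0.562 and 0.558). Gstm2 fell, at -0.90 ± 0.30 in tumor collagen I, so 3 of the 6 mu-class genes tested fell, where 12.3% of all genes did, and 24.8% of those in the brightest bin.

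Of the other transferases, Gsto2 fell, at -0.90 ± 0.21 and Gstp1 at -0.98 ± 0.20 in tumor collagen I against tumor Matrigel. Gsto2 stood at -2.01, -1.53 and -1.51 in tumor collagen I and -1.05, -0.56 and -0.74 in tumor Matrigel, against -1.67, -1.35 and -1.77 in normal collagen I and -1.79, -2.0 and -1.55 in normal Matrigel. The tumor Matrigel arrays were the highest of the 12. Prdx6, Txn2 and Txnrd2 fell, at -0.87 ± 0.17, -0.89 ± 0.19 and -0.95 ± 0.24, and Gpx1 and Gpx4 at -0.66 ± 0.22 and -0.63 ± 0.20. Under quantile normalization Gpx1 and Gpx4 changed by 0.014 and -0.12, and Gstp1 and Prdx6 by -0.41 and -0.45. None of these was called there. The endoplasmic reticulum proteins Txndc4 and Txndc11 fell, at -0.72 ± 0.18 and -0.68 ± 0.16. Txndc10 and Txndc1 rose, by 0.98 ± 0.24 (adjusted p = 0.0154) and 0.62 ± 0.21 (adjusted p = 0.047).

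In normal organoids 0 of the 66 members were called between collagen I and Matrigel by limma, where 0.0394% of all genes were. At an unadjusted p below 0.05 there were 6, and the lowest adjusted p among the members was 0.255. With array weights, 10 members were called, 8 higher and 2 lower, where 6.4% of all genes were called higher and 5.31% lower. Sod3, the extracellular dismutase, had levels of -5.53, -4.71 and -6.08 in tumor collagen I and -6.47, -4.80 and -7.50 in tumor Matrigel, against -5.38, -5.33 and -5.61 in normal collagen I and -8.16, -8.19 and -6.81 in normal Matrigel. Sod3 was far below the 75th percentile in all groups, and its probe was not well above background on the normal Matrigel arrays, so that only a bound of at least 1.61-fold can be given, and the difference did not pass (adjusted p = 0.255).

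The difference between the gel effects of the 2 tissues was tested as an interaction. By limma 0 of 66 members passed, where 2.72% of all genes did; 17 had an unadjusted p below 0.05 and the lowest adjusted p was 0.0615, for Gpx4. With the mouse as a random block 9 members passed, 2 higher and 7 lower, where 9.33% of all genes did, and with the mouse as a fixed block 0 passed. The comparison of the gels in tumor organoids and that of the tissues in Matrigel share the tumor Matrigel arrays, so the opposite signs of many members in the 2 are not independent. The 3 members with the largest such differences among those called between the gels in tumor organoids were Hmox1 at -1.74 ± 0.49, Txndc10 at 1.25 ± 0.34 and Gpx4 at -1.1 ± 0.28.

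**Figure D4:**
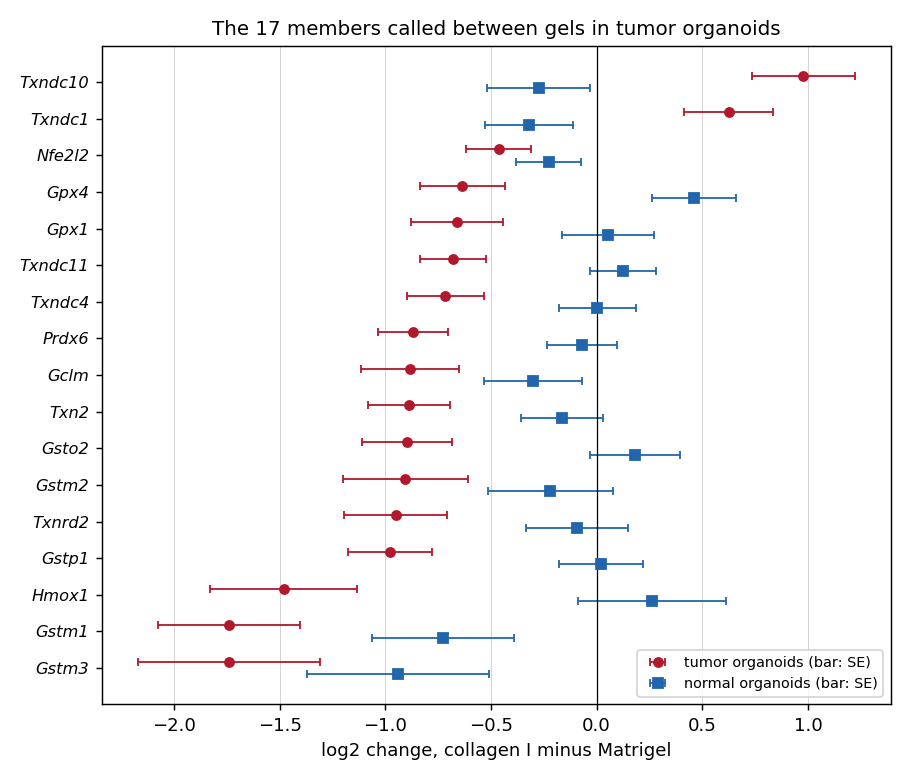
Log2 change between collagen I and Matrigel, with the SE, in tumor and in normal organoids for the 17 members called in tumor organoids. Gstm3 and Gstm1 have the largest falls in tumor organoids, -1.74 each; no member was called in normal organoids.

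NRF2 and its best known target genes did not move as 1 group. The factor binds the antioxidant response element, whose core can be written TGACNNNGC. This core was searched on both strands in RefSeq promoter windows of build GRCm38.p6, from 250 bases before to 50 bases after each gene's start. It was present for 15 of the 62 member genes with a window (24.2%), and for 14.0% of the 27025 genes with one. A gene can have several windows. Counted by window, 18.3% of the 82 member windows held the core, and 12.4% of all 32851. Hmox1, Gclc and Gsr were among the members without a window. Parts of the windows are shown for 4 genes with the core, the NRF2 gene itself and the targets Gclm, Prdx1 and Txnrd1. The 4 are examples: the window of Srxn1 also held the core, and that of Nqo1 did not. The strand is that of the gene, and capitals mark the core or its reverse complement.
Gclm, chr3:122245407-122245447, plus strand: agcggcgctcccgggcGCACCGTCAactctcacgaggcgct
Prdx1, chr4:116685450-116685490, plus strand: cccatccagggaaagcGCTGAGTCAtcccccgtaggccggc
Txnrd1, chr10:82859098-82859138, plus strand: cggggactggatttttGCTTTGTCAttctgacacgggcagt
Nfe2l2, chr2:75704879-75704913, minus strand: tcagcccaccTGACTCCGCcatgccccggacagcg
The core starts 134 bases before the start of Gclm, 133 before that of Prdx1, 92 before that of Txnrd1 in 1 of its 3 windows, and 240 before that of Nfe2l2. A match describes the letters and is not a measured binding site.

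Hmox1, which breaks down heme, was the most responsive of this group. It stood at 2.11, 2.27 and 3.45 in tumor collagen I and 3.82, 4.54 and 3.91 in tumor Matrigel, against 1.85, 2.21 and 2.11 in normal collagen I and 1.70, 1.48 and 2.19 in normal Matrigel. The 3 tumor Matrigel arrays were the highest of the 12, and tumor collagen I mouse C lay between them and the rest. Hmox1 rose by 2.30 ± 0.35 in tumor against normal Matrigel (adjusted p = 0.000547), and was called there under all 3 other scalings. Between the gels in tumor organoids it fell, at -1.48 ± 0.35 in collagen I (adjusted p = 0.0123), with -1.11 to -1.15 under the other scalings. This second call was lost under normexp and without tumor collagen I mouse A or tumor Matrigel mouse B. Between the tissues in collagen I the change was 0.55 ± 0.35 (adjusted p = 0.376).

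Glutamate-cysteine ligase makes the first step of glutathione synthesis, and its 2 subunits differed. Gclm, the modifier subunit, stood at -1.31, -1.12 and -1.89 in tumor collagen I and -0.25, -0.60 and -0.82 in tumor Matrigel, against -0.99, -1.12 and -0.97 in normal collagen I and -0.61, -0.56 and -1.0 in normal Matrigel. Tumor collagen I mice A and C were the lowest of the 12 arrays, and Gclm fell, at -0.88 ± 0.23 against tumor Matrigel (adjusted p = 0.019), with -0.82 to -0.93 under the other scalings. Gclc, the catalytic subunit, stood at 0.24, 0.20 and 0.83 in tumor collagen I and 0.96, 0.39 and 1.09 in tumor Matrigel, against 0.42, 0.48 and 0.62 in normal collagen I and 0.40, 0.87 and 0.94 in normal Matrigel. Its groups overlapped, and Gclc was called in no comparison, with changes from -0.39 ± 0.25 between the gels in tumor organoids to 0.07 ± 0.25 between the tissues in Matrigel. Gss, which makes the last step, rose by 0.69 ± 0.21 and Gsr, the glutathione reductase, fell, at -0.58 ± 0.20 in tumor against normal Matrigel. Gss stood at 1.85, 2.08 and 1.49 in tumor collagen I and 2.03, 2.68 and 2.17 in tumor Matrigel, against 1.52, 1.45 and 1.30 in normal collagen I and 1.62, 1.59 and 1.60 in normal Matrigel.

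Nqo1, a quinone reductase often used as the readout of NRF2, stood at 3.95, 3.65 and 4.17 in tumor collagen I and 4.31, 4.84 and 3.87 in tumor Matrigel, against 4.39, 4.25 and 4.13 in normal collagen I and 4.50, 4.08 and 4.46 in normal Matrigel. Its groups overlapped, and Nqo1 was called in no comparison. The change was 0.00 ± 0.25 between the tissues in Matrigel (adjusted p = 0.993) and -0.42 ± 0.25 between the gels in tumor organoids (adjusted p = 0.237). Txnrd1, the cytosolic thioredoxin reductase, stood at 4.16, 4.06 and 3.77 in tumor collagen I and 4.39, 4.43 and 4.38 in tumor Matrigel, against 4.50, 4.24 and 4.25 in normal collagen I and 3.85, 4.21 and 4.46 in normal Matrigel, with a change of 0.23 ± 0.19 in Matrigel (adjusted p = 0.327). Srxn1 stood at 1.91, 2.29 and 2.45 in tumor collagen I and 2.56, 2.86 and 2.73 in tumor Matrigel, against 1.57, 1.85 and 1.72 in normal collagen I and 1.67, 1.78 and 2.01 in normal Matrigel. Here every tumor array was above every normal array except tumor collagen I mouse A, which lay below normal Matrigel mouse D.

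The regulators themselves changed little. Nfe2l2 stood at 3.25, 3.30 and 3.27 in tumor collagen I and 3.61, 3.7 and 3.91 in tumor Matrigel, against 3.56, 3.28 and 3.27 in normal collagen I and 3.55, 3.52 and 3.72 in normal Matrigel. It fell, at -0.46 ± 0.15 in tumor collagen I against tumor Matrigel (adjusted p = 0.0456), or -0.15 to -0.21 under the other scalings, none of which called it. Keap1 stood at 3.43, 3.23 and 2.85 in tumor collagen I and 3.59, 3.97 and 3.74 in tumor Matrigel, against 3.56, 3.24 and 3.28 in normal collagen I and 3.44, 3.14 and 2.89 in normal Matrigel. It was called higher in tumor against normal Matrigel at 0.61 ± 0.21 (adjusted p = 0.032), against 0.06 to 0.27 under the other scalings, again with no call. Levels of RNA do not show the amount or the activity of either protein.

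Some members differed widely between the mice of a group. Tumor mouse C stood apart for 4 members, which were singled out after their values were seen. Gpx2 stood at -1.05, -1.81 and 2.45 in tumor collagen I and -1.41, 0.50 and 1.56 in tumor Matrigel, against -1.72, -1.49 and -1.13 in normal collagen I and -1.09, -0.51 and -0.87 in normal Matrigel. Gsto1 stood at 4.22, 4.33 and 6.26 in tumor collagen I and 4.79, 5.04 and 5.87 in tumor Matrigel, against 4.49, 4.54 and 4.14 in normal collagen I and 3.83, 3.72 and 3.85 in normal Matrigel. Gsta1 and Gsta2, of the alpha class, were likewise highest in mouse C in each gel of the tumor group. For Gsta1 the levels were -2.37, -3.75 and 2.17 in tumor collagen I and -1.67, -3.76 and -0.58 in tumor Matrigel, against -1.74, -1.62 and -1.73 in normal collagen I and -0.74, -1.54 and -1.11 in normal Matrigel. For Gsta2 they were -4.35, -5.99 and 0.45 in tumor collagen I and -3.36, -6.23 and -2.50 in tumor Matrigel, against -3.08, -2.93 and -3.03 in normal collagen I and -2.01, -2.89 and -2.62 in normal Matrigel. Gpx2, Gsta1 and Gsta2 were called in no comparison, with standard errors of 0.98, 1.25 and 1.38. Within mouse C, collagen I stood above Matrigel by 2.75 for Gsta1 and 2.95 for Gsta2. The same difference was -0.71 and -0.98 in mouse A. In mouse B it was 0.0098 for Gsta1, and the Gsta2 levels lay under the lowest level well above background on both arrays, so no difference is given. Gsto1, called higher in tumor against normal Matrigel, lost that call when tumor Matrigel mouse B or C or any 1 normal Matrigel mouse was left out, with adjusted p of up to 0.0928.

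Gsta1 and Gsta2 are close paralogs on chromosome 9, and their probes are shown because their levels moved together; capitals mark the stretch of 28 bases that the probes share but for 1 base.
Gsta1 probe: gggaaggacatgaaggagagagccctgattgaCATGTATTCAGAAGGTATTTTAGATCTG
Gsta2 probe: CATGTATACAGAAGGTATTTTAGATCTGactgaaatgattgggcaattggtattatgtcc
In this stretch 27 of 28 bases are identical. Each probe may therefore also bind the other transcript, and their values may not be separate measurements of 2 genes. Of the 2145 pairs of main probes of the 66 members none had 45 or more identical bases, and Gstm1 and Gstm2 had 31 of 60. Only probes were compared with probes, and probes of related genes can lie on different parts of their transcripts. No probe was compared with a transcript, of a member or of another gene, so binding to related transcripts was not tested.

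**Figure D5:**
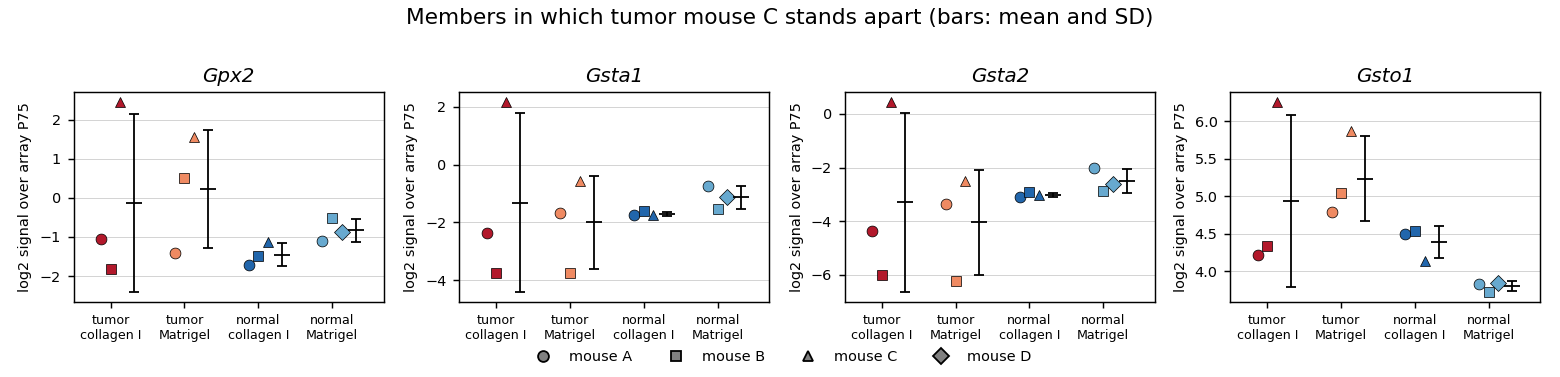
Level of Gpx2, Gsta1, Gsta2 and Gsto1 on each of the 12 arrays, as log2 signal over the array's 75th percentile, with the mean and SD of each group of 3. In both gels the highest tumor value of each gene belongs to mouse C (triangle).

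For 30 of the 72 members the array holds several probes, and the brightest was used. For the members called between the gels in tumor organoids, 18 further probes were measured. All 14 that the array design names for a RefSeq transcript moved in the called direction, and all 4 named for other cDNA records moved in the opposite one. These 4 belong to Nfe2l2 (1.18 and 0.53), Prdx6 (0.69) and Txndc11 (0.31). Between the tissues in Matrigel 21 of 23 further probes moved in the called direction, with exceptions for Txnl1 (-1.80 against 0.59 ± 0.18 for the main probe) and Txndc4 (-0.22). Sod1 showed the same division: its main probe gave 0.50 ± 0.22 in tumor against normal Matrigel, and 2 probes for another record gave -2.09 and -1.29. A fall or rise of Nfe2l2 or Sod1 thus depends on the probe.

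Genes around the glutathione system were read from lists, and their counts stand beside 26.3% of all genes called higher and 25.5% lower between the tissues in Matrigel, and beside 15.3% higher and 12.3% lower in tumor collagen I against tumor Matrigel. Of 24 genes of glutathione precursors and turnover 13 rose and 4 fell in tumor against normal Matrigel, 11 and 2 of them under all 3 other scalings. The largest rises were those of Ggt6, a gamma-glutamyltransferase family gene, at 2.73 ± 0.44, of the glutaredoxin Glrx at 2.47 ± 0.32 and of Chac1, which degrades glutathione, at 2.25 ± 0.32. Ggt7 and Chac2 fell, at -2.09 ± 0.30 and -0.83 ± 0.23. Between the gels in tumor organoids 8 fell and 3 rose in collagen I. Chac1 fell, at -2.13 ± 0.32, Cbs, which starts the route from homocysteine to cysteine, at -1.55 ± 0.34, and the amino acid transporter Slc1a5 at -1.51 ± 0.23. Those 3 falls were called under all 3 other scalings, whereas the rises of Ggct (0.91 ± 0.28) and Ggt7 (0.89 ± 0.30) were not. In collagen I tumor organoids were higher than normal ones in Glrx (2.0 ± 0.32), Ggt6 (1.89 ± 0.44) and Slc1a4 (1.07 ± 0.25) and lower in Ggt7 (-1.18 ± 0.30).

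Of 14 genes of NADPH supply 7 rose and 2 fell in tumor against normal Matrigel, and 7 fell and 2 rose in tumor collagen I against tumor Matrigel. Under all 3 other scalings 5 of the 7 and 1 of the 2 were called in Matrigel, and 2 of the 7 and 0 of the 2 between the gels. Mthfd2, a mitochondrial folate enzyme, stood out in both, at 1.70 ± 0.32 between the tissues in Matrigel and -2.09 ± 0.32 between the gels, and both calls were made under all 3 other scalings. Aldh1l1 and Pgls rose by 1.77 ± 0.62 and 1.53 ± 0.26 in tumor Matrigel. Idh1, the cytosolic isocitrate dehydrogenase, fell there, at -1.80 ± 0.19 and Me2 at -1.73 ± 0.22. Between the gels Aldh1l2 and Tkt fell, at -1.33 ± 0.19 and -1.04 ± 0.24, and Me2 and Idh1 rose by 1.21 ± 0.22 and 0.77 ± 0.19. The difference of the gel effects passed for Me2 (1.61 ± 0.30), Idh1 (1.59 ± 0.27) and Mthfd2 (-2.20 ± 0.45), and for none of these under all 3 other scalings.

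Of 28 NRF2 partners and further targets 15 rose and 3 fell in tumor against normal Matrigel, 12 and 2 of them under all 3 other scalings. The small MAF protein gene Maff, a binding partner of NRF2, rose by 3.20 ± 0.50, Osgin1 by 2.24 ± 0.22 and the heme transporter Slc48a1 by 2.13 ± 0.25. Abcc4, an efflux pump, fell, at -3.69 ± 0.53, Cul3, which works with KEAP1, at -0.70 ± 0.21 and Fech, which inserts iron into heme, at -0.51 ± 0.18. In tumor collagen I against tumor Matrigel 8 fell and 1 rose. The efflux pump Abcc3 fell, at -2.21 ± 0.37, Maff at -1.75 ± 0.50 and Slc48a1 at -1.38 ± 0.25, and Ptgr1 rose by 1.16 ± 0.33. Between the tissues in collagen I, Ephx1, Abcc1 and Sqstm1 rose by 1.21 ± 0.27, 1.17 ± 0.25 and 0.79 ± 0.18, all under every scaling, and Abcc3 and Abcc4 fell, at -3.00 ± 0.37 and -2.07 ± 0.53. The difference of the gel effects passed for Abcc3 (-2.77 ± 0.52), Osgin1 (-1.70 ± 0.31) and the ferritin light chain Ftl1 (-1.36 ± 0.25), none of them under all 3 other scalings.

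Of 17 repair genes 5 rose and 6 fell in tumor against normal Matrigel, shares near those of all genes, and 3 and 4 of these were called under all 3 other scalings. Aifm2, a suppressor of lipid peroxidation, rose by 1.78 ± 0.19, the sestrin Sesn2 by 1.67 ± 0.18 and the selenoprotein Sepw1 by 1.31 ± 0.26, while the methionine sulfoxide reductases Msrb3 and Msrb2 fell, at -2.57 ± 0.25 and -1.17 ± 0.34 and the sestrin Sesn3 at -2.12 ± 0.30. In tumor collagen I against tumor Matrigel Msrb3, Trp53inp1 and Sesn3 rose by 2.27 ± 0.25, 1.62 ± 0.20 and 0.98 ± 0.30, under every scaling, and Sesn2 fell, at -0.66 ± 0.18. In collagen I tumor organoids were higher in Pon3 (0.84 ± 0.19), Aifm2 (0.73 ± 0.19) and Sesn2 (0.64 ± 0.18), none of them under all 3 other scalings. Of 14 genes of enzymes that produce reactive oxygen 5 rose and 3 fell in tumor against normal Matrigel, again near the shares of all genes. The NADPH oxidase activator Noxa1 and organizer Noxo1 rose by 3.50 ± 0.47 and 2.05 ± 0.24 and the dual oxidase Duox1 by 1.95 ± 0.67, all under every scaling, and Maob, Nox4 and Aox1 fell, at -1.95 ± 0.40, -1.48 ± 0.32 and -1.11 ± 0.29. Between the gels Noxa1 and Xdh fell, at -2.31 ± 0.47 and -0.96 ± 0.24 in tumor collagen I, and Maob and Nox4 rose by 1.31 ± 0.40 and 1.14 ± 0.32, none of them under all 3 other scalings. In collagen I Noxo1 rose by 1.1 ± 0.24 in tumor against normal organoids, and Cybb and Nox4 fell, at -3.15 ± 0.66 and -1.32 ± 0.32, neither under all 3 other scalings. Cybb belongs to the oxidase of phagocytes, and the summed signal of 8 leukocyte markers was 31.7 to 68.7 in tumor collagen I against 92.2 to 106 in normal collagen I, whose part in the fall of Cybb was not tested. None of the 5 lists had a gene called between the gels in normal organoids.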

How the data were processed

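RNA of 1 mouse and gel was amplified from a low input, labelled with Cy3 and put on each array, per the labels' protocols. The deposited intensity is the processed signal of Agilent's Feature Extraction, which corrects the background within an array and replaces low values, per the file headers. These give version 9.5.1.1, and the submitters' processing notes 9.1. The authors also deposited log2 values, which served as an alternative; their scaling and centring are unknown.

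Levels are log2 intensities relative to the 75th percentile of the array, without control spots and without the 52 to 139 outlier spots that each array marks. Probes had to be well above background on every array of some group (26606 passed), and the brightest probe stands for a gene name; newer names are from RefSeq (GRCm38.p6). limma 3.58.1 in R 4.3.3 was fitted with a term per group on 12 arrays, leaving 8 residual degrees of freedom, and was tested on simulated data. The 2 arrays of batch 1, repeats of normal Matrigel mice, entered 1 alternative on the main scale. That of mouse B also entered the authors' deposited values, where this mouse is the mean of its batch 1 and batch 2 arrays. The number of arrays limits precision: an exact permutation test of 3 arrays against 3 cannot pass 0.05. Figures were drawn with matplotlib 3.10.9.

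Members and lists were chosen with earlier results of these data known. Named genes are the called members, 8 fixed members and up to 3 called genes per list, direction and comparison. The planned limit of 30 called members a comparison was passed between the tissues in Matrigel, where all 37 are named. Further members are named as not called. Letters pair the gels by animal, per the labels' titles. Deviations of the same mouse in both gels correlated at -0.06 (A), 0.32 (B) and 0.42 (C) in tumor organoids, and at 0.23 (A) and -0.25 (B) in normal ones. Alternatives were 3 scalings, 2 filters on dim probes, outlier spots kept, the mean of a gene's probes, batch 1 averaged in, mouse and slide blocks, only the groups compared, array weights, a variance trend and each array left out. The recount of the lists under other scalings was added after the data were seen. Some genes of the lists are counted but not reported here by name.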

Additional observations from a re-analysis of the deposited data

How the results depend on the processing

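The numbers of members called moved by more than 1.5 times under these alternatives. For the gels in tumor organoids, 17 became 5 with normexp, 11 with the mouse as a fixed replicate block, 2 with slides as a fixed block and 5 with only the groups compared. The share of all genes called moved too, from 27.6% to 7.02%, 22.5%, 14% and 12.1% in that order. For the tissues in collagen I, 5 became 1 with slides as a fixed block, while the share of all genes went from 8.89% to 1.09%. For the gels in normal organoids, 0 became 10 with array weights, while the share of all genes went from 0.0394% to 11.7%. For the difference of gel effects, 0 became 8 with batch 1 averaged in, 9 with the mouse as a random block (0 as a fixed one), 9 with the slide as a random block, 13 with array weights and 7 with a variance trend. The share of all genes, 2.72% in the main fit, was 12%, 9.33%, 9.25%, 19.4% and 5.37% where 8, 9, 9, 13 and 7 members passed. The cause was not tested. Leaving out 1 array gave 7 to 17 calls between the gels in tumor organoids (7 without tumor collagen I mouse A, 9 without tumor Matrigel mouse B), 0 in normal organoids, 25 to 38 between the tissues in Matrigel, 4 to 7 in collagen I and 0 to 4 for the difference of effects (4 without normal Matrigel mouse A). Values that reversed were those of Gpx1 between the gels in tumor organoids (0.014 with quantile normalization, 0.16 with the authors' values) and between the tissues in Matrigel (-0.34 and -0.50), Nfe2l2 between the gels (0.15 with the mean of its probes), Txnl1 between the tissues in Matrigel (-0.61 with the mean of its probes), Txnl4 (-0.039 with quantile normalization) and Txnl5 (-0.066 with quantile normalization, -0.081 with the authors' values). The mouse as a fixed replicate block ended 6 calls between the gels in tumor organoids and turned no direction, and as a random block it ended no call. The brightness of the tumor Matrigel arrays limits what can be read from small changes there.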
